A study of Sus scrofa with 12 samples.

Results

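Genes of the junctions that hold epithelial cells together were examined in the oxyntic mucosa, where the gastric body secretes its acid. A gene was included if the single platform symbol of its array feature began with CLDN, CDH and a digit, PCDH, TJP, GJA, GJB, GJC, DSG or DSC and a digit, or was OCLN, DSP, PKP2, JUP, CTNNA1 or CTNND1. This gave 50 genes, read by 56 features, of 10912 genes with a single symbol on the array. They were 16 claudins (CLDND1 and CLDND2, which carry a claudin domain, among them), OCLN and TJP1, 12 cadherins, 6 protocadherins, 7 connexins, 5 desmosome genes and 2 catenins. All 50 symbols are also in RefSeq for the pig (assembly Sscrofa11.1), where 92 symbols meet the same rule. The other 42, such as CDH1, CDH5, CLDN1, CLDN3, GJB2, DSG2 and DSC3, were not analysed here.

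The tissue came from 12 piglets of the (Great York x Pietrain) x 'Dalland' cross, born by cesarean delivery, fed artificially and sampled at 2 weeks of age. All of them were given sow colostrum after birth according to the labels, or sow serum according to the methods. The 6 CA piglets (complex association) had received diluted feces of an adult sow on top of a simple starter microbiota of *Lactobacillus amylovorus*, *Clostridium glycolicum* and *Parabacteroides* spp. The 6 SA piglets (simple association) had received the same starter microbiota and a placebo in place of the feces. The RNA of each piglet was read on its own Affymetrix porcine gene array, and values are given as log2 intensity. The methods take the piglets from several sows and balance the groups by litter, body weight and sex. Litter, sex and pen are not labelled per piglet, so the tests treat littermates as independent. The labels house the 2 treatments in separate rooms, in which case room and treatment cannot be told apart, whereas the methods place piglets of both groups in each room.

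Epithelial cells are joined by several kinds of junction. Tight junctions seal the space between neighbouring cells with strands of claudins and occludin, which are tied to the actin skeleton by zonula occludens scaffolds such as TJP1. In the stomach this seal keeps acid in the lumen, and CLDN18 is its typical claudin. Adherens junctions are built from cadherins, which bind the same cadherin on the next cell, and from catenins inside the cell. Desmosomes use the special cadherins desmoglein and desmocollin and tie them to keratin filaments through JUP, PKP2 and DSP. Connexins form gap junctions, the channels through which small molecules pass from cell to cell. Several of these families are also used outside the epithelium, as CLDN5 in blood vessels, CDH2 and CDH19 in nerve and muscle layers, and GJA1 in smooth muscle.

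The arrays were alike in overall brightness, with a median intensity of 56.2 to 57.6 in CA and 55.6 to 57.4 in SA piglets. Of the 50 genes, 25 lay above the median feature of the table (5.82 on the log2 scale) and 25 below it. The features of genes below it may carry little signal of the gene. Markers of the oxyntic mucosa were bright, such as ATP4A (mean 12.01), GKN2 (12.58) and PGA5 (12.27), whereas all 5 measured markers of squamous epithelium lay below the median feature. The array of CA piglet 4 stood apart on the first principal component (26.3% of the variance). It was the highest of the 12 arrays for 25.1% of all genes and for 20% of the junction genes. The same array was the lowest for 16.4% of all genes and for 12% of the junction genes.

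No junction gene passed the test between the CA and the SA piglets. After Benjamini-Hochberg adjustment over all genes, limma called 0 of the 50 at an adjusted p under 0.05 (lowest adjusted p = 0.999), as it called 0% of all genes. The exact permutation test with the same adjustment also called 0, but with 6 against 6 piglets its p cannot fall below 0.00216. After adjustment over 10912 genes it could hardly call any gene, so this 0 adds no support. At an unadjusted p under 0.05, limma gave 1 gene higher in the CA piglets, CDH7, and 1 lower, CDH2. These 2 genes are 4% of the 50, against 3.28% of all genes called by the same rule (2.06% higher and 1.22% lower). The exact permutation test compares the same means, so it is no separate evidence. It had an unadjusted p under 0.05 for these 2 genes, and for 374 of all 10912 genes. The groups overlapped in 49 of the 50 genes. CDH7 was the exception, with the CA piglets all above the SA piglets, as in 0.0733% of all genes, and 0 of the 50 had the CA piglets all below the SA piglets, as in 0.055% of all genes.

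Most differences were small and lay on the CA side. The log2 fold change, CA minus SA, was above 0 for 37 of the 50 genes (74%), against 52.7% of all genes. With each array centred on its median it was above 0 for 31 of the 50, against 44.3% of all genes, and it was above 0 for 30 to 40 of the 50 when 1 piglet was left out (30 without SA piglet 9). With array weights it was above 0 for 32 (51.1% of all genes), and after a second quantile normalization for 34 (48.5% of all genes). Its median was 0.03 over the junction genes and 0.01 over all genes. By class the median was 0.04 for the claudins, 0.07 for OCLN and TJP1, 0.03 for the cadherins, 0.04 for the protocadherins, 0.04 for the connexins, 0.04 for the desmosome genes and 0.03 for the catenins. The median turned to -0.01 for the cadherins with array weights and to -0.03 for the protocadherins without CA piglet 1. The 95% interval of the fold change stayed within 1.25-fold in either direction for 29 genes, 15 of them above the median feature, and within 2-fold for 49. CLDN2 alone reached further. Beside these values, 7 of 7 markers of parietal cells, the acid-secreting cells, had a log2 fold change above 0, and 4 of them an unadjusted p under 0.05. Their mean, with each of the 7 centred on the 12 piglets, ran between -0.34 and 0.48 in CA and between -0.65 and 0.49 in SA piglets. Its part in the junction genes was not tested. In whole mucosa, fewer cells of a type and less RNA per cell cannot be told apart.

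**Figure D1:**
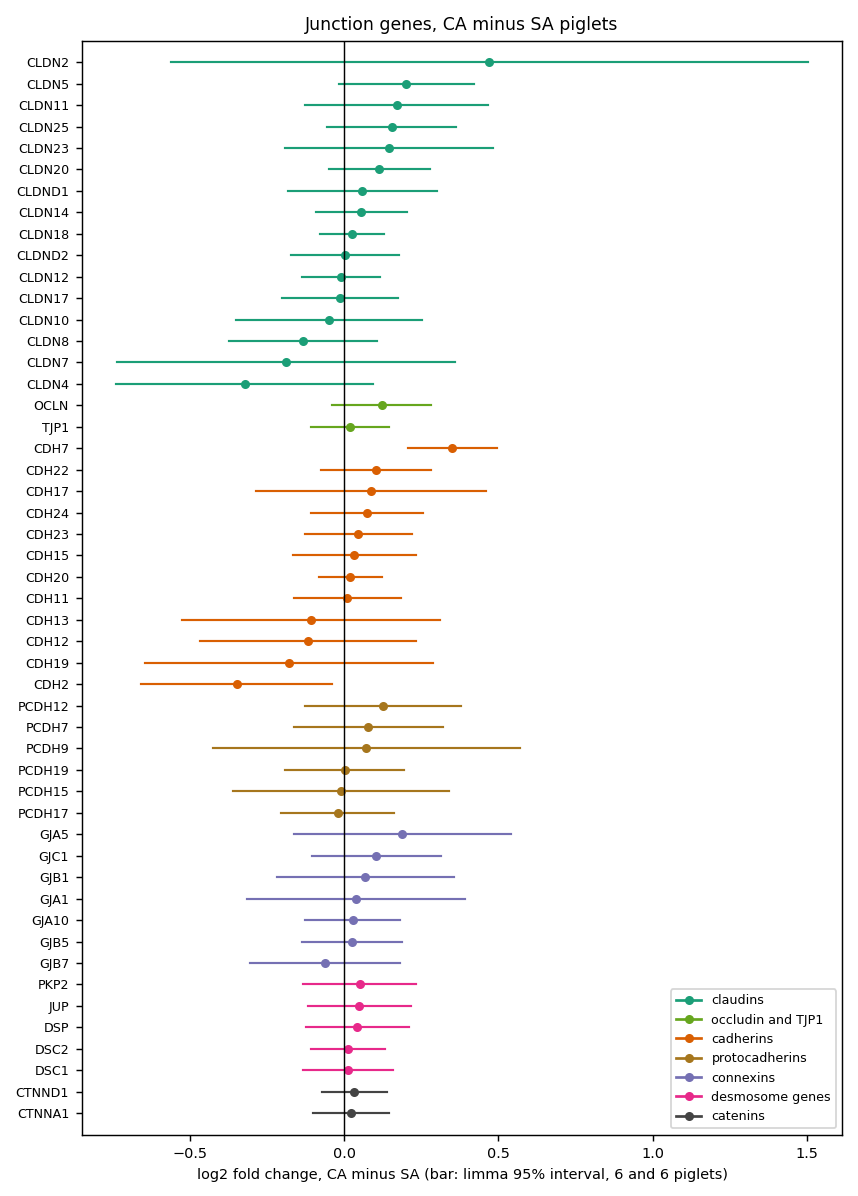
Log2 fold change of each of the 50 junction genes (points), CA minus SA, with the 95% interval from limma (bars, 6 piglets per group), ordered by class. All intervals cross 0 but those of CDH7 (0.21 to 0.49) and CDH2 (-0.66 to -0.04), and the interval of CLDN2 is the widest.

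CLDN18, the stomach claudin, differed least between piglets among the claudins. Its log2 intensity was 12.07 at the lowest, 12.13 at the median and 12.19 at the highest in the CA piglets, and 12.06, 12.10 and 12.18 in the SA piglets. All 12 piglets thus lay within 1.10-fold of each other. CA and SA piglets differed by 0.02 on the log2 scale (standard error 0.05), with a 95% interval of 0.946-fold to 1.09-fold. Brighter features made up 0.0871% of the array, and the brightest value on any array was 12.82, so the feature lay near the upper end of the scale. Whether brightness limits the differences it can show was not tested. CLDN12, a claudin found in many epithelia, was also even, at 8.78 to 8.95 in CA and 8.77 to 8.97 in SA piglets (log2 fold change -0.01, standard error 0.06).

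CLDN5, the claudin of endothelial cells, had the smallest p of the claudins. It was at 5.75, 6.05 and 6.38 in the CA piglets (lowest, median and highest), against 5.56, 5.86 and 5.94 in the SA piglets. The levels of 4 CA piglets were above that of every SA piglet, while those of CA piglets 3 and 5 lay among the SA values. The mean was 0.20 higher in CA piglets on the log2 scale (standard error 0.10, limma unadjusted p = 0.0693, exact permutation p = 0.0844), and the difference was 0.13 without CA piglet 4. Beside it, 6 of 6 endothelial markers had a log2 fold change above 0. Their mean, with each marker centred on the 12 piglets, was -0.06 to 0.26 in CA and -0.14 to 0.06 in SA piglets. CA piglets 4 and 2 were the highest in both CLDN5 and these markers. The part of the markers in the CLDN5 difference was not tested.

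CLDN4 and CLDN7, which occur along much of the gut epithelium, had lower means in the CA piglets but varied widely within each group. CLDN4 was at 5.37, 5.70 and 6.45 in the CA piglets and at 5.64, 6.12 and 6.66 in the SA piglets. The ranges overlapped over most of their length. Its log2 fold change was -0.32 (standard error 0.19, limma unadjusted p = 0.117, exact permutation p = 0.180). CLDN7 was at 5.95, 6.94 and 7.65 in CA and at 6.75, 7.01 and 7.47 in SA piglets. The CA piglets held both the lowest value, in piglet 1, and the highest, in piglet 3. Its log2 fold change of -0.19 (standard error 0.25, limma unadjusted p = 0.467) became -0.01 without CA piglet 1. That piglet was the lowest of the 12 in CLDN4 too, and it had the lowest mean of 5 markers of gastric epithelium (-0.28, against -0.23 to 0.39 in the SA piglets). The part of this in the claudin values was not tested.

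CLDN2, a claudin that makes tight junctions permeable to cations, was the most variable junction gene. In CA piglet 4 it reached 8.52, whereas the other CA piglets lay between 5.00 and 5.84 and the SA piglets between 5.03 and 6.20. The 12 piglets spanned 11.5-fold. Its SD within groups (0.96) exceeded that of 99.8% of all genes. Its mean over the 12 piglets (5.78) lay just below the median feature. The difference in means of 0.47 on the log2 scale (standard error 0.48, limma unadjusted p = 0.344) became -0.03 without CA piglet 4. CLDN25 (4.83 to 5.27 in CA and 4.71 to 5.14 in SA piglets) differed by 0.15 on the log2 scale (standard error 0.10) and lay below the median feature.

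**Figure D2:**
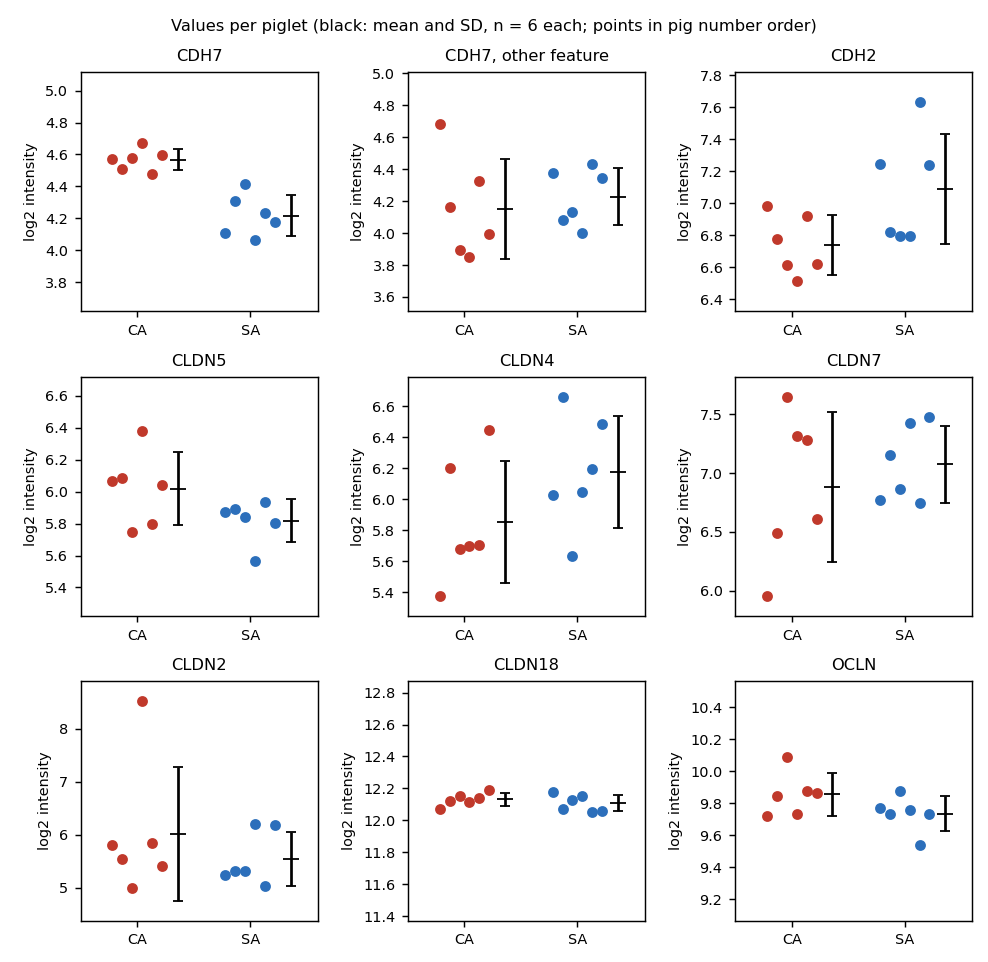
Log2 intensity of 8 junction genes in each piglet (points in order of pig number, CA left in red, SA right in blue), with the mean and SD of each group in black, n = 6 each. CDH7 is shown by both of its features. The CA piglets lie above the SA piglets in its brighter feature only, CA piglet 4 stands alone in CLDN2, and CLDN18 stays between 12.06 and 12.19.

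OCLN and TJP1 showed no difference beyond the spread between piglets. OCLN, the occludin of the tight junction strand, was at 9.72, 9.86 and 10.09 in CA and at 9.54, 9.75 and 9.88 in SA piglets. Only CA piglet 3 was above every SA piglet. OCLN differed by 0.12 on the log2 scale (standard error 0.07, limma unadjusted p = 0.130, exact permutation p = 0.134), with an interval of 0.972-fold to 1.22-fold. Leaving out CA piglet 3 gave 0.07. TJP1, the scaffold zonula occludens 1, was at 9.97 to 10.18 in CA and at 9.96 to 10.17 in SA piglets. Its log2 fold change was 0.02 (standard error 0.06), with an interval of 0.928-fold to 1.10-fold.

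CDH7, a type II cadherin known mainly from the nervous system, had the smallest p of all 10912 genes. In its brighter feature the CA piglets were at 4.48, 4.58 and 4.67 (lowest, median and highest), against 4.06, 4.20 and 4.41 in the SA piglets. The lowest CA piglet was thus above the highest SA piglet. The log2 fold change was 0.35 (standard error 0.07, limma unadjusted p = 0.00014, adjusted p = 0.999), and the exact permutation p was 0.00216, the smallest that 6 against 6 piglets can give. It stayed between 0.32 and 0.39 when any 1 piglet was left out. The feature was dim, however, with 28.2% of all features below it. The array holds a second CDH7 feature, at 3.85 to 4.68 in CA and 4.00 to 4.44 in SA piglets. There the SA values lay within the range of the CA values, and the log2 fold change was -0.08 (standard error 0.14, limma unadjusted p = 0.579). With the mean of both features CDH7 no longer had an unadjusted p under 0.05. The higher level in the CA piglets was therefore seen in 1 of 2 features, both below the median feature.

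CDH2, the N-cadherin of nerve, muscle and mesenchyme, was the only junction gene lower in the CA piglets at an unadjusted p under 0.05. It was at 6.51, 6.70 and 6.98 in the CA piglets and at 6.79, 7.03 and 7.63 in the SA piglets. The levels of 4 CA piglets lay below every SA piglet, and SA piglet 11 was the highest of all. The log2 fold change was -0.35 (standard error 0.14, limma unadjusted p = 0.0297, adjusted p = 0.999, exact permutation p = 0.0476). Without SA piglet 11 it was -0.24, and its limma unadjusted p was 0.05 or more when any 1 of 6 piglets was left out, namely CA piglets 3, 4 and 6 and SA piglets 7, 11 and 12 (highest 0.0651). SA piglet 11 also had the highest smooth muscle markers, given with the correlations across piglets.

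The other cadherins had log2 fold changes between -0.18 and 0.10 and overlapped between the groups. CDH17, the liver-intestine cadherin, was bright at 8.72 to 9.65 in CA and 8.62 to 9.42 in SA piglets, with a log2 fold change of 0.09 (standard error 0.17). Its signal stood beside that of intestinal markers, of which CDX1, CDX2, FABP2, SI and APOA4 lay below the median feature and VIL1 and MUC2 above it. CDH11, a cadherin of fibroblasts, was even at 8.95 to 9.32 in CA and 9.04 to 9.43 in SA piglets (log2 fold change 0.01, standard error 0.08). CDH13, which is anchored to the membrane without a tail inside the cell, spread over 7.06 to 8.17 in CA and 7.24 to 7.94 in SA piglets (-0.11, standard error 0.19). Its difference was -0.25 without CA piglet 1 and -0.03 without SA piglet 11. CDH19, a cadherin of Schwann cells and other glia with a mean below the median feature, lay at 4.51 to 5.56 in CA and 4.64 to 5.83 in SA piglets (-0.18, standard error 0.22). The same piglets moved it most, to -0.32 without CA piglet 1 and to -0.02 without SA piglet 11. CDH19 is the neighbour of CDH7 in the gene order of RefSeq. CDH22, below the median feature too, was at 5.01 to 5.44 in CA and 4.83 to 5.21 in SA piglets (0.10, standard error 0.08).

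The catenins were the steadiest class. CTNND1, the p120-catenin that holds cadherins at the membrane, was at 10.88, 10.92 and 10.95 in the CA piglets and at 10.78, 10.91 and 10.93 in the SA piglets. Its 12 piglets lay within 1.13-fold, and its SD within groups was at the 0.541 percentile of all genes. CTNNA1, the alpha-catenin that links cadherins to actin, was at 10.75, 10.83 and 11.00 in CA and at 10.72, 10.83 and 10.91 in SA piglets. Both genes had intervals that ended at 1.10-fold (0.951-fold for CTNND1 and 0.931-fold for CTNNA1 at the lower end). The log2 fold changes were 0.03 (standard error 0.05) for CTNND1 and 0.02 (standard error 0.06) for CTNNA1, and 0.02 (standard error 0.08) in the second feature of CTNNA1.

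Protocadherins, which are mainly known from the nervous system, did not separate the groups. PCDH12, a protocadherin of endothelial cells with a mean just below the median feature, was at 5.60, 5.74 and 6.35 in CA and at 5.52, 5.75 and 5.91 in SA piglets. Its log2 fold change of 0.12 (standard error 0.12) was 0.02 without CA piglet 4, the piglet with the highest value and the highest endothelial markers. PCDH7 was at 9.03, 9.47 and 9.70 in CA and at 9.04, 9.32 and 9.58 in SA piglets. Its 2 features had log2 fold changes of 0.08 (standard error 0.11) and 0.13 (standard error 0.10). PCDH9, with a mean below the median feature, reached 6.20 in CA piglet 1, while the other CA piglets lay at 4.63 to 5.07 and the SA piglets at 4.51 to 5.40. Its log2 fold change was 0.07 (standard error 0.23) and turned to -0.15 without that piglet.

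Desmosome genes were close to equal in the groups. DSP, the desmoplakin that holds keratin filaments, was at 9.88, 10.13 and 10.25 in CA and at 9.95, 10.02 and 10.26 in SA piglets. JUP, the plakoglobin shared by desmosomes and adherens junctions, was at 10.18, 10.42 and 10.66 in CA and at 10.26, 10.37 and 10.48 in SA piglets. PKP2, plakophilin 2, was at 6.49, 6.70 and 7.07 in CA and at 6.58, 6.68 and 6.79 in SA piglets. In all 3 the CA piglets covered a wider range than the SA piglets, and the groups overlapped. Their log2 fold changes were 0.04 (standard error 0.08) for DSP, 0.05 (standard error 0.08) for JUP and 0.05 (standard error 0.09) for PKP2. The fold change intervals ran over 0.916 to 1.16 for DSP, 0.921 to 1.16 for JUP and 0.911 to 1.18 for PKP2. The desmocollins DSC1 and DSC2, neighbouring genes, were dim. DSC2 was at 2.84 to 2.94 in CA and 2.75 to 3.03 in SA piglets, with 4.42% of features below it, so that its level here cannot be read with confidence.

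Connexins overlapped between the groups in each of the 7 genes. GJB1, connexin 32, a channel of glandular cells, was at 8.68, 9.36 and 9.42 in CA and at 8.92, 9.10 and 9.53 in SA piglets. CA piglet 1 was far below the other CA piglets, which lay at 9.26 or above. GJB1 differed by 0.07 on the log2 scale (standard error 0.13), and by 0.18 without that piglet. GJA1, connexin 43, was at 9.22, 9.59 and 10.11 in CA and at 9.24, 9.53 and 10.14 in SA piglets. CA piglet 1 and SA piglet 11 held the highest value of their group, and the log2 fold change was 0.04 (standard error 0.16). GJA5, connexin 40 of arterial endothelium, was at 6.22, 6.61 and 7.14 in CA and at 6.10, 6.51 and 6.83 in SA piglets. GJA5 differed by 0.19 on the log2 scale (standard error 0.16, limma unadjusted p = 0.27), and by 0.09 without CA piglet 4. GJC1, connexin 45, was at 7.31, 7.58 and 7.85 in CA and at 7.33, 7.49 and 7.61 in SA piglets (0.10, standard error 0.10). Without CA piglet 1 it was 0.05. Its second feature held the same values and is no second measurement. GJB7 was dim, at 3.38 to 4.09 in CA and 3.64 to 4.01 in SA piglets (-0.06, standard error 0.11).

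**Figure D3:**
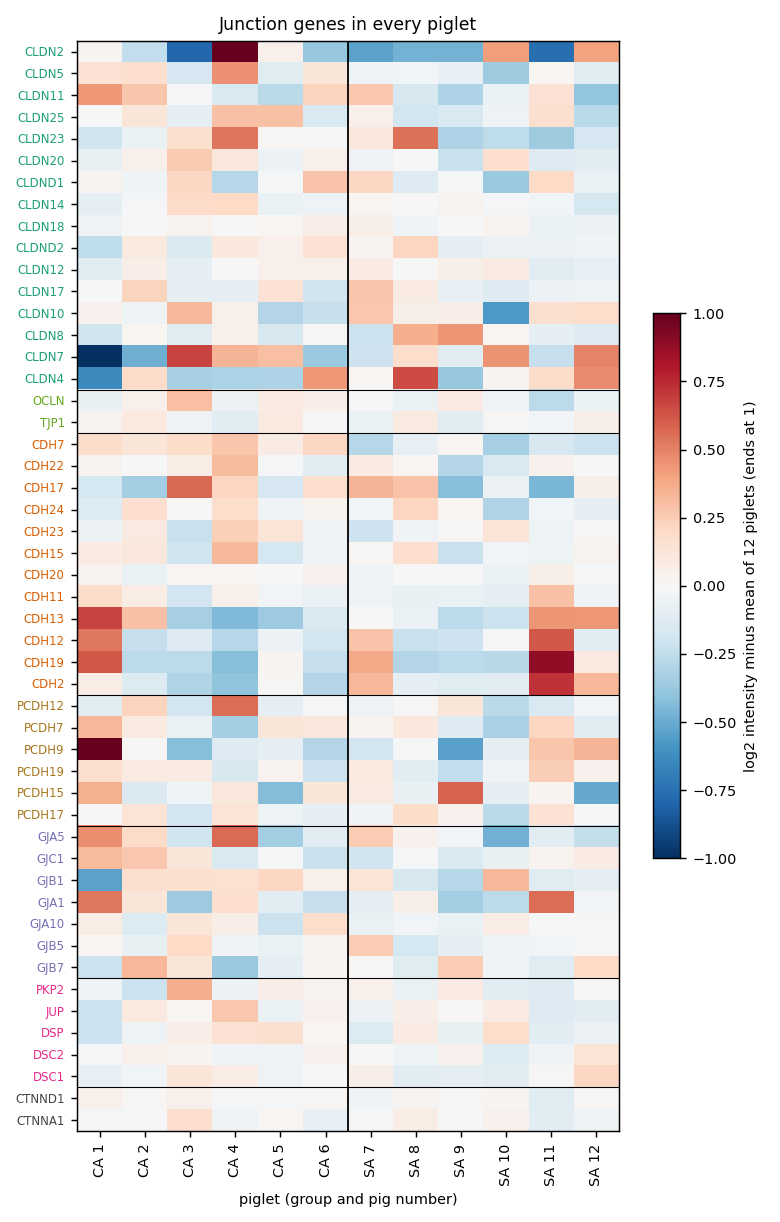
Log2 intensity of each junction gene minus its mean over the 12 piglets (color, red above and blue below, with the scale ending at 1), with the 6 CA piglets left and the 6 SA piglets right. Rows follow the classes. CA piglet 1 and SA piglet 11 are high in CDH12, CDH13, CDH19 and GJA1, while CTNND1, CTNNA1, TJP1 and CLDN18 are pale in all 12 piglets.

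The junction genes differed widely in their spread between piglets of one group. Of the 50 genes, 7 were in the least variable 10% of all genes, namely CTNND1, CLDN18, CDH20, CTNNA1, TJP1, DSC2 and CLDN12. A further 12 were in the most variable 10%: CLDN2, CLDN7, CLDN4, CLDN23, CDH19, CDH13, CDH17, CDH12, PCDH9, PCDH15, GJA1 and GJA5. The SD within groups was 0.05 for CTNND1 and for CLDN18 and 0.08 for TJP1, against 0.51 for CLDN7 and 0.38 for CLDN4. In 10 genes the 12 piglets spanned at least 2-fold, such as CLDN7 (3.24-fold), PCDH9 (3.21-fold), CDH19 (2.49-fold) and CLDN4 (2.44-fold). CDH20 and DSC2 were dim, so their small SD need not describe the gene. The median SD was 0.16 both for the junction genes and for all genes.

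**Figure D4:**
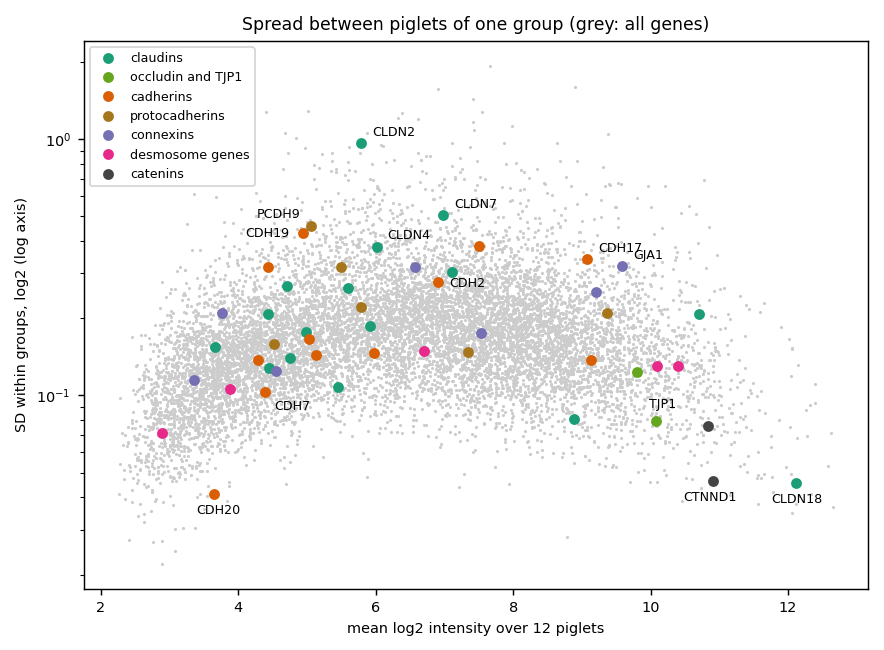
SD within groups (log2, on a log axis) against the mean log2 intensity over 12 piglets for all 10912 genes (grey) and the 50 junction genes (colored by class). CLDN2 (0.96) and CLDN7 (0.51) lie at the upper edge and CLDN18 and CTNND1 (0.05 each) at the lower edge.

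Several junction genes followed markers of other cell types from piglet to piglet. A marker mean is the mean over a cell type's markers of the log2 intensity, each centred on the 12 piglets. Across the 12 piglets 10 pairs of a gene and a marker mean were compared by permutation test. CDH19 followed the mean of 4 markers of enteric neurons and glia, 3 of which lay below the median feature (r = 0.90, permutation p = 0.00045, adjusted over the 10 pairs 0.0045). Its rho was 0.55 (permutation p = 0.0702, adjusted 0.117), and CDH19 itself lay below the median feature. Within the CA piglets r was 0.91 (exact permutation p = 0.0583) and within the SA piglets 0.91 (exact permutation p = 0.0153), and without the 2 piglets farthest from the median it was 0.70 (permutation p = 0.0281). CA piglet 1 and SA piglet 11, at 0.55 and 0.56, had the highest mean of these markers. UCHL1 (SD 0.65 in CA and 0.88 in SA piglets) and STMN2 (0.53 and 0.49) spread most, so they weigh most in that mean. SOX10 (0.09 and 0.21) and GFAP (0.16 and 0.22) weigh little in it.

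GJA1 and CDH2 followed 3 markers of smooth muscle, CNN1, ACTA2 and TAGLN. For GJA1 r was 0.80 (permutation p = 0.00174, adjusted 0.0087) and rho 0.64 (p = 0.0278, adjusted 0.0806). It was 0.83 within the CA and 0.85 within the SA piglets (exact permutation p = 0.0431 and 0.0653), and 0.66 without the 2 farthest piglets (permutation p = 0.0435). For CDH2 r was 0.70 (permutation p = 0.0119, adjusted 0.0298) and rho 0.73 (p = 0.00821, adjusted 0.0806). It was 0.79 within the CA and 0.77 within the SA piglets (exact permutation p = 0.0375 and 0.0736). Without SA piglets 11 and 9 it was 0.59 (permutation p = 0.0669) and no longer had a p under 0.05. The smooth muscle mean ran between -0.33 and 0.45 in CA and between -0.71 and 0.73 in SA piglets, with 0 of 3 markers above 0 in log2 fold change. Its part in the CDH2 difference was not tested.

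CLDN5 followed 6 endothelial markers (r = 0.75, permutation p = 0.00384, adjusted 0.0128; rho = 0.64, p = 0.03, adjusted 0.0806), with r = 0.75 within the CA and 0.43 within the SA piglets (exact permutation p = 0.0847 and 0.447). Without CA piglets 4 and 2 it was 0.41 (permutation p = 0.243), so the pooled relation did not pass the test without them. CDH11 and 6 fibroblast markers gave r = 0.63 (permutation p = 0.026, adjusted 0.0519; rho = 0.63, p = 0.0322, adjusted 0.0806), and 0.76 and 0.53 within the CA and the SA piglets (exact permutation p = 0.0819 and 0.307). It was 0.39 without CA piglets 1 and 3 (permutation p = 0.285) and did not pass the test without them. CDH17 and 7 intestinal markers gave r = 0.51 (permutation p = 0.0878, adjusted 0.146; rho = 0.55, p = 0.0662, adjusted 0.117), and 0.40 without SA piglet 8 and CA piglet 4 (permutation p = 0.258). Within the CA piglets r was 0.84 (exact permutation p = 0.0417) and within the SA piglets 0.34 (exact permutation p = 0.475), and the difference between these was not tested. Of the 7 intestinal markers MUC2 spread most (SD 0.62 in CA and 0.71 in SA piglets), so it weighs most in their mean. The other 4 pairs had an adjusted permutation p of 0.235 or more for r. These were GJC1 with smooth muscle (r = 0.43, rho = 0.47), GJB1 with parietal cells (r = -0.32, rho = -0.33), and CLDN18 with parietal cells (r = 0.11, rho = 0.05) and with the mucous cell markers GKN1, GKN2 and MUC6 (r = 0.35, rho = 0.22). Of these markers MUC6 spread most (SD 0.17 in CA and 0.34 in SA piglets), so it weighs most in their mean. CLDN18 thus varied little and showed no detectable relation to either marker mean over 12 piglets.

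**Figure D5:**
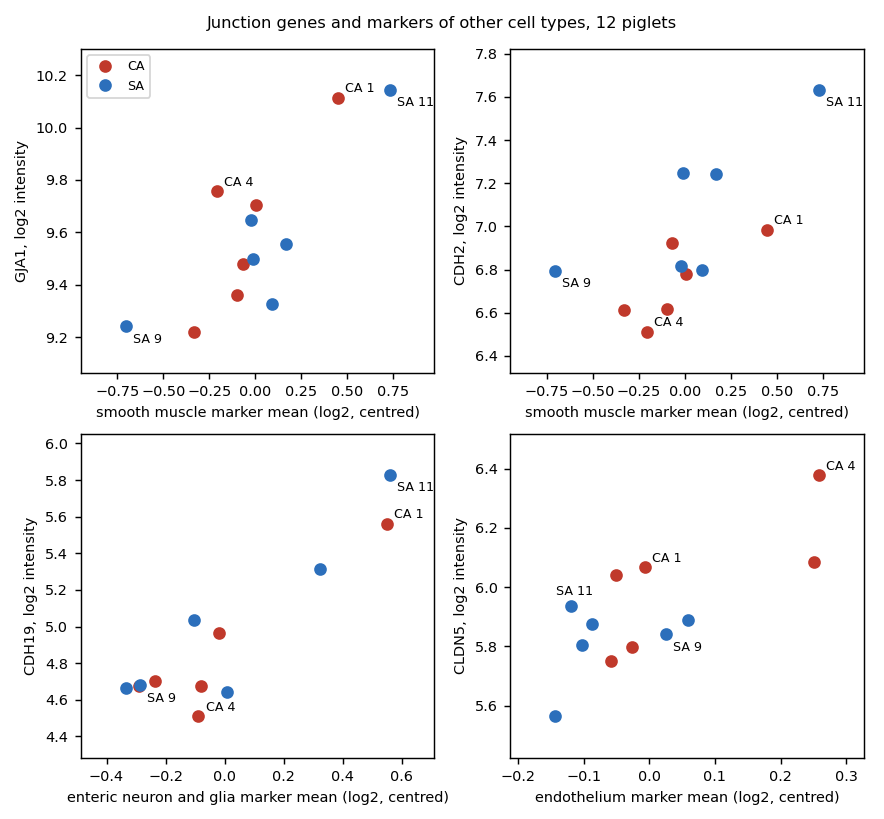
Log2 intensity of GJA1, CDH2, CDH19 and CLDN5 against the marker mean of smooth muscle, enteric neurons and glia or endothelium (log2, centred) in 12 piglets, CA red and SA blue. CA piglet 1 and SA piglet 11 hold the 2 highest values on both axes for GJA1 and CDH19, and CA piglet 4 holds the highest CLDN5 value.

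Further junction genes, outside the rule, differed little between the groups too. For comparison, 52.7% of all genes had a log2 fold change above 0 and 3.28% a limma unadjusted p under 0.05. Of 17 other tight junction genes, 13 had a log2 fold change above 0 and 1 had an unadjusted p under 0.05. This was MARVELD2, the tricellulin of corners where cells meet and a relative of OCLN, at 8.76 ± 0.18 in CA and 8.55 ± 0.16 in SA piglets (SD, n = 6 each; log2 fold change 0.21, standard error 0.09, limma unadjusted p = 0.041, adjusted p = 0.999). The median of the 17 was 0.06. Of 16 other adherens junction genes, 6 were above 0 (median -0.01) and 0 had an unadjusted p under 0.05 from limma. CTNNB1, the beta-catenin, was at 10.81 ± 0.06 in CA and 10.83 ± 0.05 in SA piglets, and CTNNAL1, a relative of alpha-catenin, had the smallest p (0.19, standard error 0.14, limma unadjusted p = 0.199). Of 7 genes of the desmosome plaque and its keratins, 4 were above 0 and 0 had an unadjusted p under 0.05, with PPL, periplakin, lowest at 0.288 (0.09, standard error 0.08). Of 5 further connexins and pannexins, 2 were above 0 and 0 had an unadjusted p under 0.05, with PANX3, a pannexin, lowest at 0.0996 (-0.12, standard error 0.07).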

How the data were processed

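Total RNA of 12 piglets, 6 CA and 6 SA, was hybridized by the authors on porcine gene arrays of Affymetrix, 1 array per piglet. The authors used Robust Multichip Analysis in Affymetrix software (no version in the sources used here), which corrects the background, normalizes by quantiles and summarizes the probes of a feature. Their deposited intensities are linear and were converted to log2 here. The platform annotation gave 1 symbol to 11982 of 27558 features. A further 373 had several symbols and 15203 had none in the table used. Where a gene had several features (969 genes) the brightest was taken.

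All 10912 genes were compared with lmFit and eBayes of limma 3.58.1 in R 4.3.3, with Benjamini-Hochberg adjustment over all genes and no covariate. The test was checked on simulated data with independent noise per gene and added changes larger than any found in the junction genes. The check does not show whether changes as small as those found here could be called. Exact permutation tests used the 924 splits of the 12 piglets, and correlations 100000 permutations, or all orders within a group of 6, in Python 3.11.15 (numpy 2.4.6, pandas 2.3.3, scipy 1.17.1). All tests were two-sided. Figures were drawn with matplotlib 3.10.9. Standard errors and 95% intervals are the moderated ones of limma. The authors' gene set analysis was not used.

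Genes described are those with an unadjusted p under 0.05, up to 3 per class with the smallest p, and a fixed set of well-known junction genes. CLDN2, CLDN12, CLDN23, CDH11, CDH13, CDH19 and CTNNB1 and the genes of outlying piglets were chosen after their values were seen. The members and lists were chosen with earlier results of these data known. Alternatives were the mean of a gene's features, leaving out dim features, a second quantile normalization, centring on the median, a moderation trend, array weights, linear intensities, the exact test, and each piglet left out once. Testing each feature on its own was decided after seeing the data. The number of arrays limits the precision.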

Additional observations from a re-analysis of the deposited data

Results flagged for a closer look

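In 8 of 100 groups of 6 values tested, 1 piglet lay far from the other 5 of its group. For a single group chance gives about 1 in 20. The 100 groups share the same 12 piglets and are not independent, and the count over all genes was not made. The 8 are therefore not read as an excess. CLDN2 was at 8.52 in CA piglet 4, the other CA piglets at 5.00 to 5.84. CA piglet 1 was highest in CDH12 (4.96, others 4.15 to 4.37) and PCDH9 (6.20, others 4.63 to 5.07), and lowest in GJB1 (8.68, others 9.26 to 9.42). SA piglet 11 was highest in CDH11 (9.43, others 9.04 to 9.10). SA piglet 10 was lowest in CLDN5 (5.56, others 5.81 to 5.94) and CLDN10 (4.14, others 4.77 to 4.98), and SA piglet 12 was lowest in CLDN14 (5.28, others 5.43 to 5.49). CA piglet 1 and SA piglet 11 are also the piglets with the highest smooth muscle markers (0.45 and 0.73), and SA piglet 10 has the lowest endothelial markers (-0.14). The part of these in the outlying values was not tested.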

How the results depend on the processing

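Under all alternatives 0 junction genes were called at an adjusted p under 0.05. The exact test, with a smallest p of 0.00216, could hardly have called any. The 1 gene higher at an unadjusted p under 0.05 became 0 with the mean of all features. It was also 0 without dim features, but CDH7 is dim and was itself left out there, so its loss was fixed by the filter. The count was 1 to 2 when 1 piglet was left out (CLDN5 joined CDH7 without CA piglet 3 or 5, and CLDN20 without SA piglet 10). The 1 gene lower became 0 on linear intensities and 0 to 2 when 1 piglet was left out (CLDN4 replaced CDH2 without CA piglet 6 and joined it without SA piglet 9). Over all genes, 700 had an unadjusted p under 0.05 with array weights, against 358 without weights, 192 of the 6266 genes kept after leaving out dim features, and 243 to 672 when 1 piglet was left out. The class medians, and that of all 50 genes, moved by less than the spread between piglets in each of 144 recomputed values. Leaving out 1 piglet can hardly shift a median that far, and the moderation trend leaves fold changes as they are. This outcome was therefore nearly fixed in advance and adds no support. Of the 144 values 2 turned in sign, the cadherins to -0.010 with array weights and the protocadherins to -0.027 without CA piglet 1. Of 31 genes, 19 kept their direction in each alternative run for them (linear intensities gave counts of calls only, and dim genes were not recomputed without dim features). CDH7 turned to -0.077 in its other feature. With array weights CDH17 turned to -0.056, CLDN12 to 0.0053, GJA1 to -0.00013 and GJB7 to 0.0049, and with median centring CDH11 turned to -0.0089, DSC2 to -0.0076 and TJP1 to -5.5e-05. Leaving out 1 piglet gave -0.026 to 0.069 for CDH11, -0.020 to 0.16 for CDH17, -0.036 to 0.0084 for CLDN12, -0.030 to 0.67 for CLDN2, -0.011 to 0.039 for CTNNA1, -0.015 to 0.040 for DSC2, -0.064 to 0.15 for GJA1, -0.14 to 0.0055 for GJB7, -0.15 to 0.16 for PCDH9, -0.018 to 0.097 for PKP2 and -0.0031 to 0.042 for TJP1. Without the 2 piglets farthest from the median, r became 0.41 for CLDN5 with endothelium, 0.59 for CDH2 with smooth muscle, 0.39 for CDH11 with fibroblasts, 0.011 for GJB1 with parietal cells and -0.42 for CLDN18 with the mucous cell markers. The cause was not tested. An analysis paired by litter was not possible because litter is not labelled per piglet.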
